A study of Mus musculus with 2 samples.

Results

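The clustered protocadherins are cell adhesion proteins of neurons, encoded by 3 neighboring arrays of genes, alpha, beta and gamma, on mouse chromosome 18. Their RNA was compared here between 2 areas of the embryonic mouse brain, the subventricular zone (SVZ) and the cortex. Members were all genes of the count files whose symbol begins with Pcdha, with Pcdhb and a number, or with Pcdhga, Pcdhgb or Pcdhgc, which gave 59 of 24411 genes. The members matched to GENCODE M21 gene models lay on the plus strand. Positions are from the RefSeq table (GRCm38.p6, the build to which the deposited mm10 counts correspond). There alpha ran from position 36930285 to 37188897, beta from 37264998 to 37521419 and gamma from 37661775 to 37841873. By class there were 12 alpha stochastic members (Pcdha1 to Pcdha12), 22 beta members, 12 gamma A and 7 gamma B members, and 5 C-type members, namely Pcdhac1 and Pcdhac2 in the alpha cluster and Pcdhgc3, Pcdhgc4 and Pcdhgc5 in the gamma cluster. The last member, Pcdha7-g, is a gene model that joins an alpha first exon to the gamma cluster.

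As background, each alpha or gamma isoform is made from its own promoter and its own large first exon, which encodes the extracellular and transmembrane part of the protein and is spliced to constant exons used by the whole cluster, whereas beta genes lack constant exons. Stochastic isoforms are chosen in different combinations by single neurons, through promoter choice that involves CTCF, cohesin and DNA methylation, and C-type isoforms are transcribed more uniformly. The proteins bind copies of themselves on other membranes and are known for self-avoidance of dendrites, axon tiling, synapse formation and neuronal survival.

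Both pieces of tissue were taken from fresh-frozen brain at embryonic day 16.5 by laser capture microdissection (LCM), in which areas of a stained section are cut out with a laser, and each gave 1 bulk RNA-seq library. The SVZ is a germinal layer in which neural progenitors divide, and the cortex holds the neurons they produce. No treatment or mutation is labelled for either area, and the sources used here state neither strain nor sex nor how many embryos were cut. With 1 library for each area there was no replicate, no test and no p-value, and every difference below separates these libraries only.

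The SVZ library held 51435667 gene-assigned reads against 22050693 in the cortex library, 2.33 times as many. Levels are given in CPM (reads per 1000000 gene-assigned reads), and a single read equalled 0.0194 CPM in the SVZ and 0.0454 CPM in the cortex. A difference is given as the log2 of SVZ CPM over cortex CPM, negative where the cortex was higher. Its exact 95% interval comes from the read counts and covers counting error only, since PCR copies without molecular identifiers are not independent molecules. The study's SVZ markers Pax6, Mki67 and Sox2 had log2 ratios of 8.05, 5.58 and 3.74, and its cortex markers Cdh13 and Dpf3 had -6.45 and -0.31, the last with an interval that held 0. Of all genes, 12738 reached 1 CPM on average over the libraries, of which 86.8% had an interval that excluded 0, and their median log2 ratio was 0.11.

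The clustered protocadherins as a whole were more abundant in the cortex library. Summed over the 59 members there were 4425 reads in the SVZ and 5571 reads in the less deeply sequenced cortex, which made 86.0 and 253 CPM, a log2 ratio of -1.55 (interval -1.61 to -1.50) or 2.94-fold more in the cortex. The size of the difference followed the cluster. The alpha cluster had 484 and 1350 reads, 9.41 CPM in the SVZ and 61.2 CPM in the cortex, and was 6.51-fold higher in the cortex (log2 ratio -2.70, interval -2.85 to -2.55). The beta cluster, which held most member reads in both libraries, had 3080 and 3573 reads, 59.9 and 162 CPM, and was 2.71-fold higher in the cortex (-1.44, -1.51 to -1.37). The gamma cluster had 861 and 648 reads, 16.7 and 29.4 CPM, and was 1.76-fold higher in the cortex (-0.81, -0.96 to -0.66). The counting intervals of the 3 clusters did not overlap. Without members whose own exons lie under annotated minus-strand exons, an alternative added after the data were seen, the gamma sum stood at -0.053 with an interval of -0.28 to 0.18, which held 0. The make-up of the member reads differed accordingly: alpha took 10.9% of them in the SVZ and 24.2% in the cortex, beta 69.6% and 64.1%, and gamma 19.5% and 11.6%. These are shares of counted reads. Less of each alpha and gamma transcript than of each beta transcript could be counted, as described further on. The shares can therefore be compared between the libraries but do not rank the RNA amounts of the clusters. In bulk tissue, fewer cells that express a gene and less of its RNA per cell cannot be told apart, and the libraries differed in cell make-up (neuron and progenitor markers are given further on).

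**Figure D1:**
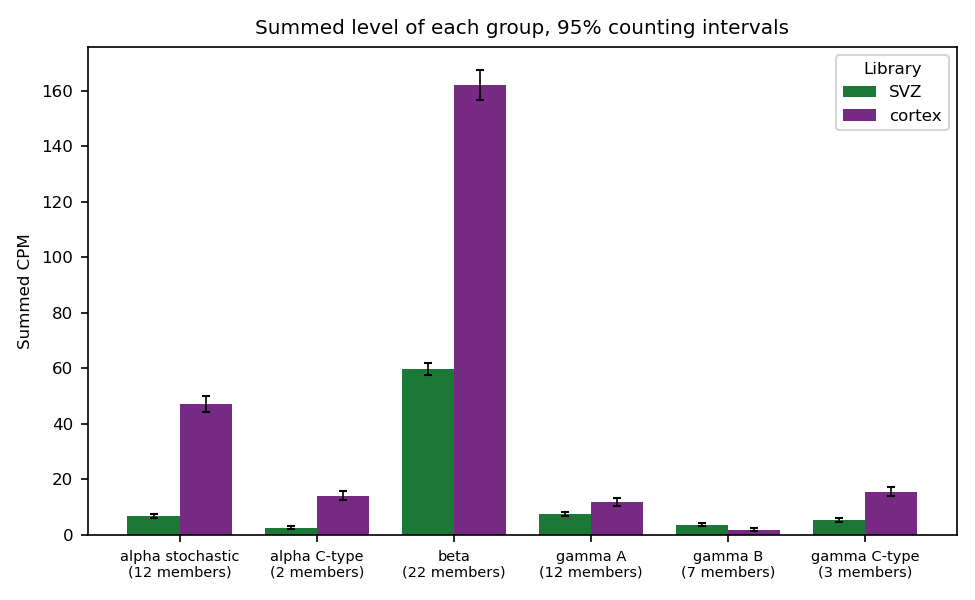
Summed CPM of each class of clustered protocadherins in the SVZ library (green) and the cortex library (purple), with bars from 0 and 95% counting intervals. The cortex bar is the taller in all classes but gamma B, where the SVZ had 3.64 CPM and the cortex 1.90 CPM, and the beta class is the largest in both libraries with 59.9 and 162 CPM.

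Individual members were then counted, to see how many shared the direction of the sums. Of the 59 members, 34 had a mean of at least 1 CPM. Among these, 24 were at least 2-fold higher in the cortex and 0 at least 2-fold higher in the SVZ, with 10 in between. Of all genes past the same minimum, 15.6% were at least 2-fold higher in the cortex and 20.0% in the SVZ. For genes with a mean of 1 to 20 CPM, a range that held these members except Pcdhb7 (mean 23.5 CPM), the shares were 21.9% and 28.4%. At least 4-fold higher in the cortex were 15 of the 34 members, against 7.01% of all genes. The median log2 ratio of the 34 members was -1.79. The minimum itself favors members that are high in 1 library, so the members without it are given as well: 54 had a ratio, 32 of them at least 2-fold higher in the cortex, 6 in the SVZ and 16 in between. A further 4 members had no read in either library, and Pcdha7-g had 1 read in all. By cluster, 9 of 9 alpha members with at least 1 CPM were at least 2-fold higher in the cortex, 13 of 18 beta members and 2 of 7 gamma members.

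**Figure D2:**
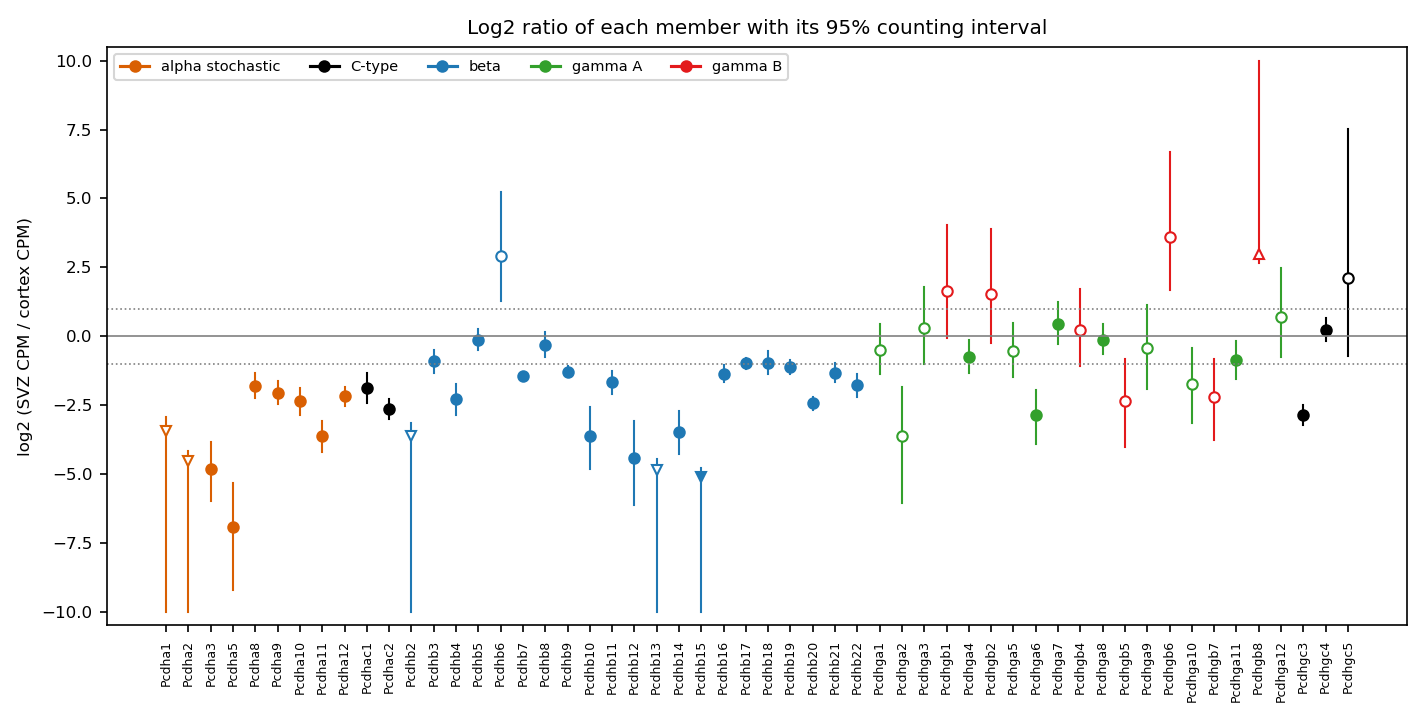
Log2 ratio of SVZ to cortex CPM (vertical axis) for the 54 members with a ratio, in chromosomal order and colored by class, with 95% counting intervals. Dotted lines mark 2-fold and filled symbols a mean of at least 1 CPM. Triangles mark ratios in which 0 reads of a library were set at 3, whose intervals run off the axis. Alpha members all lie below 0, beta members lie below 0 except Pcdhb6 at 2.89, and gamma members spread from Pcdhga2 at -3.64 to Pcdhgb6 at 3.61.

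In the alpha cluster the stochastic isoforms formed contrasting blocks along the chromosome. The first 5 genes of the array, Pcdha1 to Pcdha5, were almost unread in the SVZ, with 12 reads in all against 307 in the cortex, 59.7-fold higher there (log2 ratio -5.90, interval -6.87 to -5.07), and of these Pcdha4 gave no reads at all. Pcdha5 had 3 reads in the SVZ and 155 in the cortex, 0.0583 and 7.03 CPM, a log2 ratio of -6.91 (-9.21 to -5.34). Pcdha3 had 9 and 108 reads, 0.175 and 4.90 CPM, a log2 ratio of -4.81 (-5.97 to -3.83). Per length of own exon they stood at 3.00 and 1.98 CPM per kb in the cortex, within the range of the later alpha genes there, and were nearly missing from the SVZ. Pcdha1 had 0 reads in the SVZ and 14 in the cortex, and Pcdha2 had 0 and 30. With the SVZ set at a floor of 3 reads (0.0583 CPM) they were 10.9-fold and 23.3-fold higher in the cortex. Their counting intervals had no lower end and reached up to log2 ratios of -2.95 and -4.16.

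The genes at the other end of the array, Pcdha8 to Pcdha12, were read in both areas, with 335 reads in the SVZ and 730 in the cortex, a difference of 5.08-fold toward the cortex (log2 ratio -2.35, interval -2.54 to -2.16). The intervals of these blocks did not overlap, but the blocks were drawn after the values were seen, so the split is a description. Pcdha12, the alpha stochastic gene with the most reads, had 102 and 199, 1.98 and 9.02 CPM (log2 ratio -2.19, -2.54 to -1.83). Pcdha11 had 33 and 173 reads, 0.642 and 7.85 CPM (-3.61, -4.20 to -3.07), and Pcdha9 had 74 and 131, 1.44 and 5.94 CPM (-2.05, -2.48 to -1.62). Pcdha8 and Pcdha10 were also higher in the cortex, at log2 ratios of -1.80 and -2.36. Within this block Pcdha11 stood lowest, with an interval that did not overlap those of its 4 neighbors. Annotated minus-strand exons of Gm10545 cover 2446 of its 2500 own exon bases, and in an unstranded library the reads of both strands cannot be told apart.

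**Figure D3:**
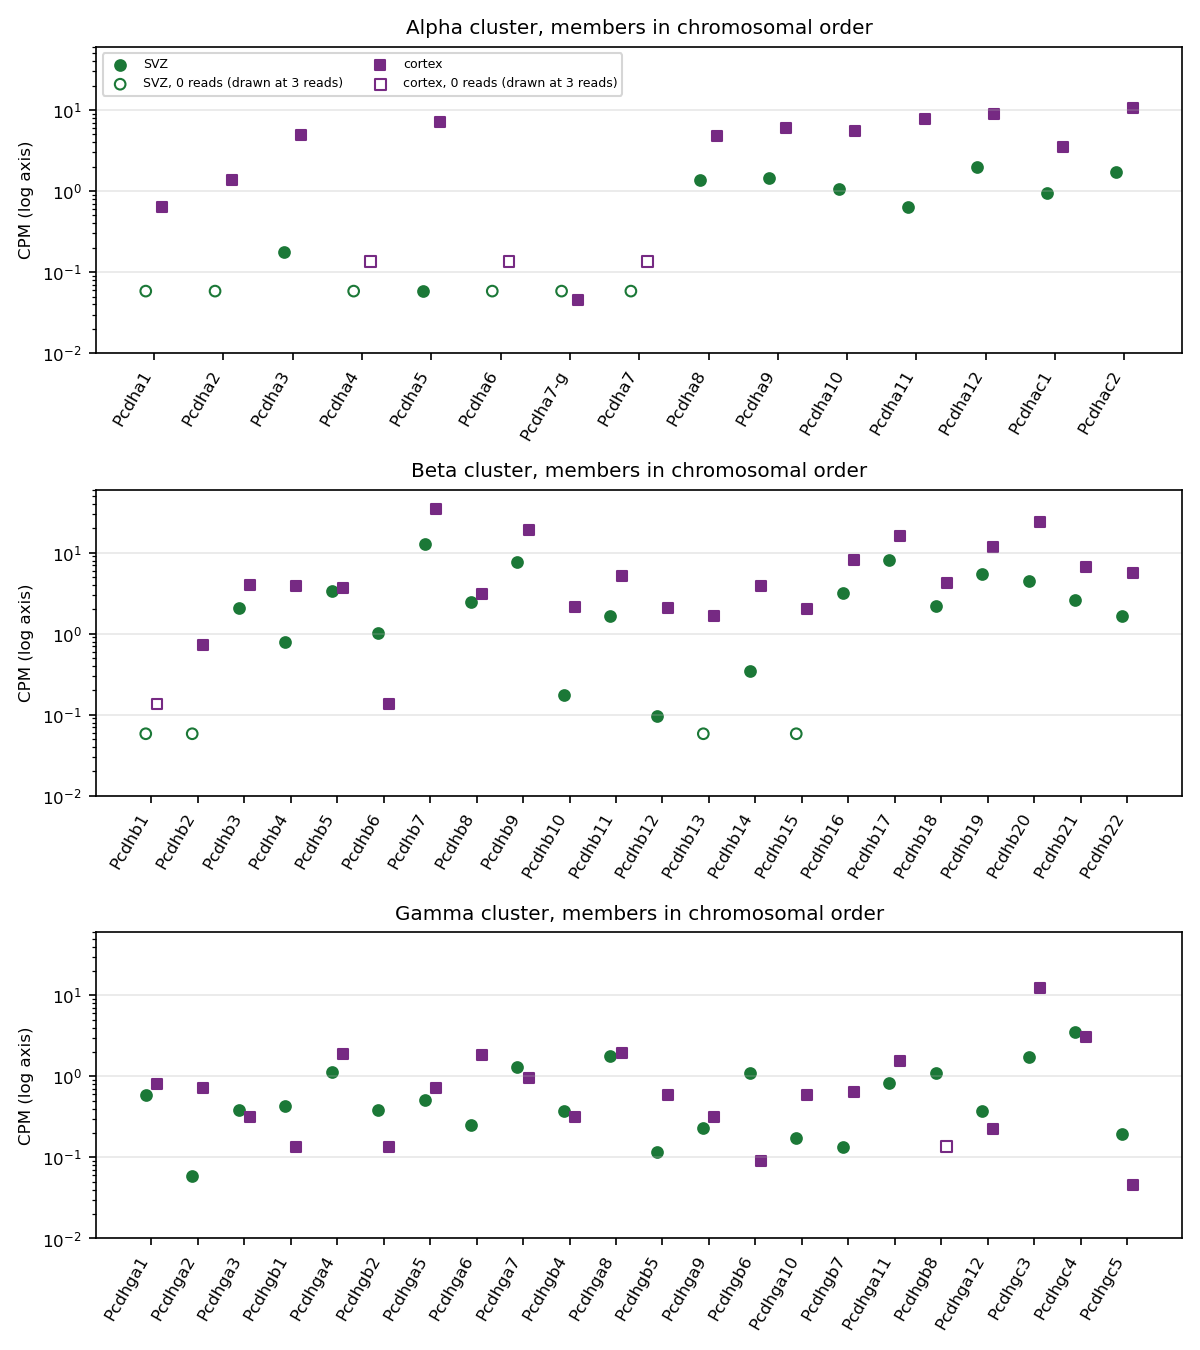
CPM on a log axis of every member of the alpha, beta and gamma clusters in chromosomal order, 1 panel for each cluster, with the SVZ as green circles and the cortex as purple squares; open symbols mark 0 reads, drawn at the floor of 3 reads. In the alpha panel the SVZ points of Pcdha1 to Pcdha5 lie at or near the floor (Pcdha3 highest, 0.175 CPM) while those of Pcdha8 to Pcdha12 lie between 0.642 and 1.98 CPM.

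The alpha stochastic genes Pcdha4, Pcdha6 and Pcdha7 were listed at 0 reads in both libraries. The gene list also holds alpha-gamma fusion models that begin at nearly the same positions and run to the end of the gamma cluster. These are Gm37013 from 36952648 beside Pcdha4 from 36952689, Gm38666 from 36967631 beside Pcdha6 from 36967625, and Pcdha7-g (Gm38667) from 36973802 beside Pcdha7 from 36973811. A read that overlaps more than 1 gene model is left uncounted by STAR, so the zeros of these isoforms say nothing about their level. The fusion models themselves had 0 and 0, 1 and 6, and 0 and 1 reads in SVZ and cortex.

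Beta genes are single-exon genes that encode whole protocadherins without the constant cytoplasmic domain. Their summed difference was smaller than that of alpha. The 18 members of at least 1 CPM ran from -0.13 (Pcdhb5) to -5.13 (Pcdhb15), with a median log2 ratio of -1.40. Pcdhb7 was the most counted member of all clusters, with 650 reads in the SVZ and 756 in the cortex, 12.6 and 34.3 CPM, a log2 ratio of -1.44 (interval -1.59 to -1.29). Pcdhb9 had 394 and 415 reads, 7.66 and 18.8 CPM (-1.30, -1.50 to -1.09), and Pcdhb17 had 420 and 357, 8.17 and 16.2 CPM (-0.99, -1.19 to -0.78). Scaled to own exon length, Pcdhb7 was also the highest beta gene, at 3.60 CPM per kb in the SVZ and 9.78 in the cortex, against beta medians of 0.492 and 1.08. As a description of how the beta genes ranked in each library, across 21 beta genes the Spearman correlation of the libraries was 0.85, where each point shares its gene length and annotation.

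Some beta genes departed from the rest of the cluster. Pcdhb20, with 228 and 530 reads (4.43 and 24.0 CPM), had a log2 ratio of -2.44 (-2.67 to -2.21) and replaced Pcdhb17 as the second most counted beta gene of the cortex. Pcdhb12 to Pcdhb15, 4 adjacent genes picked out after their values were seen, had 23 reads in the SVZ and 213 in the cortex, 21.6-fold higher in the cortex (-4.43, -5.12 to -3.81). Among them Pcdhb15 had 0 and 45 reads, and Pcdhb13 had 0 and 37. With the SVZ at the floor of 3 reads they were 35.0-fold and 28.8-fold higher in the cortex. Their counting intervals reached up to log2 ratios of -4.77 and -4.48. Pcdhb12 had 5 and 46 reads and Pcdhb14 18 and 85. Both were also low in the SVZ, at log2 ratios of -4.42 and -3.46. Annotated minus-strand exons of Gm37446 cover 1927 of the 3034 bases of Pcdhb12. Without Pcdhb12 to Pcdhb15 the beta sum moved only to -1.36 (-1.43 to -1.29). Away from that stretch, Pcdhb10 had 9 and 47 reads (-3.61, -4.82 to -2.56) and Pcdhb2 had 0 and 16. With the SVZ at the floor, Pcdhb2 was 12.4-fold higher in the cortex, and its counting interval reached up to -3.17.

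At the other extreme, Pcdhb5 (171 and 80 reads, log2 ratio -0.13, interval -0.52 to 0.28) and Pcdhb8 (128 and 68 reads, -0.31, -0.74 to 0.14) had intervals that held 0. Pcdhb6 was the beta gene that leaned to the SVZ, with 52 reads (1.01 CPM) there and 3 reads (0.136 CPM) in the cortex, a log2 ratio of 2.89 (1.27 to 5.22). It stands next to Pcdhb5 and Pcdhb7, whose ratios were near 0 and below it. Pcdhb1, the first gene of the array, had 0 reads in both libraries, where the floor of 3 reads equals 0.0583 CPM in the SVZ and 0.136 CPM in the cortex.

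The gamma A and gamma B isoforms, which alternate along the gamma array, did not share the strong cortex bias of the other stochastic isoforms. Gamma A had 392 and 263 reads, 7.62 CPM in the SVZ and 11.9 CPM in the cortex, a log2 ratio of -0.65 (interval -0.88 to -0.42). Gamma B had 187 and 42 reads, 3.64 and 1.90 CPM, and was 1.91-fold higher in the SVZ (0.93, 0.44 to 1.45). That lean rested on Pcdhgb6 and Pcdhgb8, without which gamma B (74 and 40 reads) stood at -0.33 (-0.91 to 0.26). Among gamma A genes, Pcdhga8 had 92 and 43 reads, 1.79 and 1.95 CPM (-0.12, -0.66 to 0.43), and Pcdhga7 had 67 and 21, 1.30 and 0.952 CPM (0.45, -0.27 to 1.23). Neither differed beyond counting error. Pcdhga4 had 58 and 42 reads (-0.76, -1.35 to -0.15) and Pcdhga11 43 and 34 (-0.88, -1.57 to -0.19), both below 2-fold. Pcdhga6, with 13 and 41 reads (0.253 and 1.86 CPM), was the gamma A gene with at least 1 CPM that was past 2-fold, at -2.88 (-3.90 to -1.95).

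The gamma B genes were thinly read, and no gamma B gene reached a mean of 1 CPM. Pcdhgb6 had 57 reads (1.11 CPM) in the SVZ and 2 reads (0.0907 CPM) in the cortex, a log2 ratio of 3.61 (1.69 to 6.69). Pcdhgb8, annotated as a transcribed pseudogene, had 56 reads (1.09 CPM) in the SVZ and 0 in the cortex. With the cortex at its floor of 3 reads (0.136 CPM) it was 8.0-fold higher in the SVZ. The counting interval of Pcdhgb8 reached down to a log2 ratio of 2.65. Pcdhgb6 and Pcdhgb8 were the gamma genes whose interval lay wholly on the SVZ side. Pcdhgb1 (22 and 3 reads), Pcdhgb2 (20 and 3) and Pcdhgb4 (19 and 7) had ratios of 1.65, 1.52 and 0.22 with intervals that held 0. In contrast, Pcdhgb5 (6 and 13 reads, -2.34, -4.02 to -0.84) and Pcdhgb7 (7 and 14, -2.22, -3.77 to -0.82) were higher in the cortex, so that the gamma B genes did not move as 1 group. Over the whole gamma cluster with no minimum, 6 members were at least 2-fold higher in the cortex, 5 in the SVZ and 11 in between. No share of all genes was taken without a minimum, so these counts are a description. At these counts many gamma differences were not detectable, and 12 of 22 intervals held 0.

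The 5 C-type isoforms, last in their arrays, together had 419 reads in the SVZ and 655 in the cortex, 8.15 and 29.7 CPM, 3.65-fold more in the cortex (log2 ratio -1.87, interval -2.05 to -1.69). They split by member. Pcdhac2, which is required for axon tiling of serotonergic neurons, had 88 and 235 reads, 1.71 and 10.7 CPM (-2.64, -3.01 to -2.28). Pcdhac1 had 49 and 77 reads, 0.953 and 3.49 CPM (-1.87, -2.42 to -1.34). Pcdhgc3, known to promote dendrite branching of cortical neurons, had 88 and 275 reads, 1.71 and 12.5 CPM (-2.87, -3.23 to -2.51). These members were thus 3.67-fold to 7.29-fold higher in the cortex. Pcdhgc4, the gamma isoform needed for survival of cortical interneurons, had 184 and 67 reads, 3.58 and 3.04 CPM, with a log2 ratio of 0.24 (-0.18 to 0.66) that did not differ from 0 beyond counting error. Pcdhgc5, known as a late-appearing isoform, had 10 reads and 1 read, a log2 ratio of 2.10 with an interval of -0.71 to 7.54. Per length of own exon, Pcdhgc4 was the highest C-type gene of the gamma cluster in the SVZ at 1.23 CPM per kb, and Pcdhgc3 in the cortex at 4.86 CPM per kb.

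The gamma difference rested largely on Pcdhgc3. Without it the gamma cluster had 773 reads (15.0 CPM) in the SVZ and 373 (16.9 CPM) in the cortex, and its log2 ratio was -0.17 with an interval of -0.35 to 0.01. Pcdhgc3 made up 10.2% of gamma reads in the SVZ and 42.4% in the cortex, whereas Pcdhgc4 took 21.4% of gamma reads in the SVZ and a smaller share in the cortex. Exons of the minus-strand gene BC037039 cover 1513 of the 2568 own exon bases of Pcdhgc3, and reads of the 2 strands cannot be told apart in these libraries.

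The spread of reads over the isoforms of a cluster was described by an effective number, the count of equally read isoforms that would give the same evenness (inverse Simpson index). In the alpha cluster it was 6.72 (interval 6.36 to 7.13) in the SVZ and 8.71 (8.40 to 9.04) in the cortex, where Pcdha1, Pcdha2, Pcdha3 and Pcdha5 joined the later genes. Pcdha4, Pcdha6 and Pcdha7, whose zeros say nothing about their level, add nothing to either value. In the beta cluster it was nearly equal, 9.36 (8.97 to 9.78) and 9.47 (9.08 to 9.90), and the 3 most counted genes held 47.5% and 47.6% of beta reads. The gamma cluster went the opposite way from alpha, with 10.7 (9.72 to 11.8) in the SVZ and 4.77 (4.20 to 5.52) in the cortex. There Pcdhgc3, Pcdhgc4 and Pcdhga8 together held 59.4% of gamma reads in the cortex and 42.3% in the SVZ. Of these only Pcdhgc3 had the larger share in the cortex, 42.4% against 10.2% in the SVZ. Pcdhgc4 had 21.4% in the SVZ and 10.3% in the cortex, and Pcdhga8 had 10.7% and 6.64%. The effective number was not computed without Pcdhgc3, so the gamma contrast cannot be separated from that gene. The order of the isoforms by reads was shared least in gamma, with a Spearman correlation between the libraries of 0.42 over 22 members, compared with 0.73 over 12 alpha members. Many gamma members had under 20 reads in a library. These are pooled cells of an area and say nothing of how many isoforms a single cell used.

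**Figure D4:**
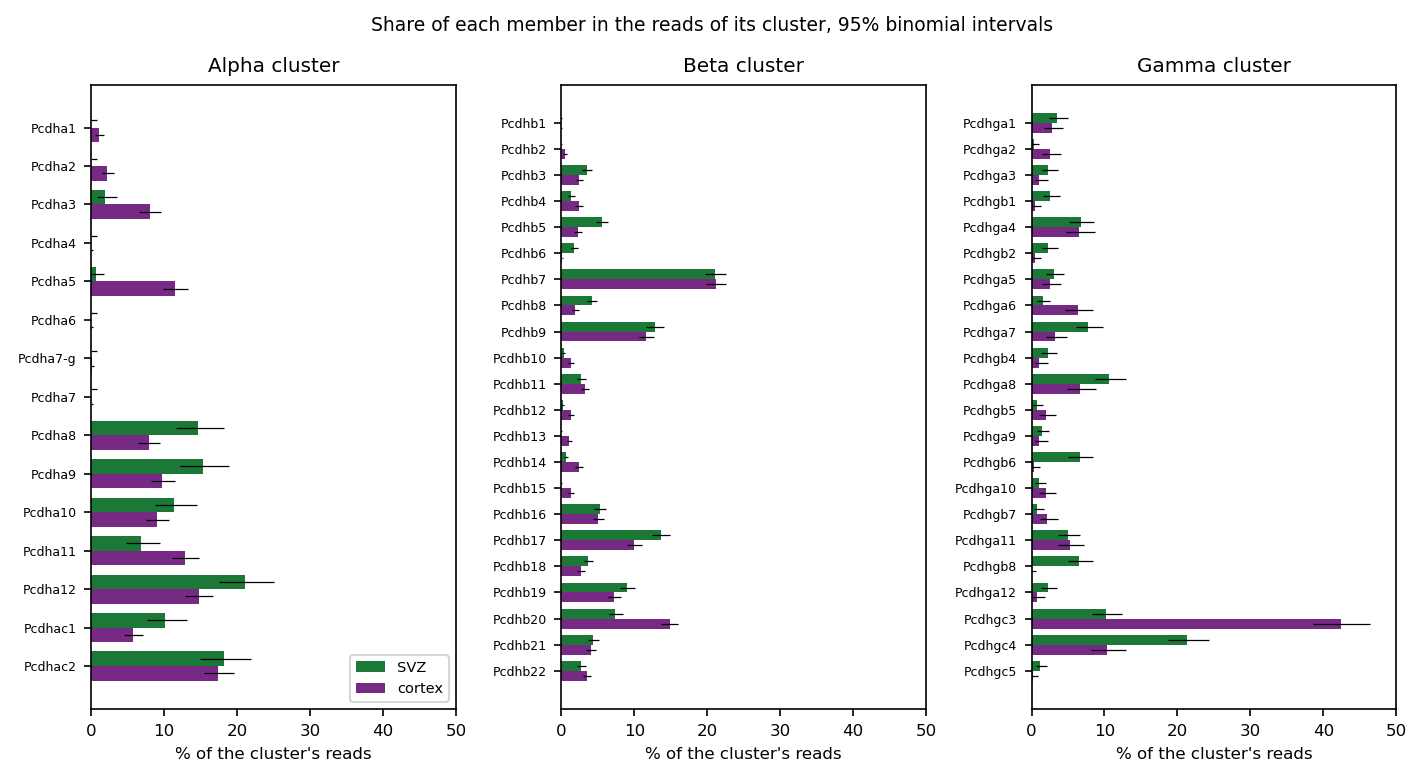
Share of each member in the reads of its own cluster, in percent from 0, for the SVZ (green) and the cortex (purple), with 95% binomial intervals. Pcdhgc3 stands out at 10.2% and 42.4% of gamma reads, Pcdha5 has 0.620% and 11.5% of alpha reads, and Pcdhb7 is level at 21.1% and 21.2% of beta reads.

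Only part of each alpha and gamma transcript could be counted. In the GENCODE M21 gene models, 48.6% to 54.9% of the exon bases of alpha members other than Pcdha4 and 41.7% to 45.5% of those of gamma members lie in exons shared with another gene, while the share was at most 9.70% in beta. Reads in shared exons are not counted, so in these models alpha and gamma sums rest on own exons of 2346 to 3028 and 2542 to 2961 bases. Here the first exons of Pcdha6 and Pcdha7 counted as their own, because the fusion models beside them did not enter these shares. The gene models behind the counts were not used here and may differ, and the levels per kb with them. Ambiguous reads of all genes were 1.44% of all reads in the SVZ and 1.28% in the cortex. Members also resemble each other: of the 75-base words (the read length) of a member's own exons, up to 15.7% (Pcdha11), 4.05% (Pcdhb12) and 13.3% (Pcdhgb1) occurred in another member, and such reads map to several places and are lost. The libraries carried no strand information, with 48.8% and 51.0% of member reads on the first strand in SVZ and cortex. Counting each strand apart changed the count of 2 members (Pcdhga7 and Pcdhgb5) by at most 1 read. Besides Pcdha11, Pcdhb12 and Pcdhgc3, annotated minus-strand exons overlap own exons of Pcdha4, Pcdha6, Pcdha12, Pcdhga1, Pcdhga7, Pcdhga8, Pcdhga10, Pcdhga11, Pcdhga12 and Pcdhgb7.

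Genes known to act on the promoters and chromatin of the clusters were examined next. Of 25 such genes with at least 1 CPM, 0 were at least 2-fold higher in the cortex and 3 in the SVZ (15.6% and 20.0% of all genes), with a median log2 ratio of 0.38. Ctcf, the DNA-binding protein that brings promoters and enhancers of the clusters together, had 119 CPM in the SVZ and 103 CPM in the cortex (log2 ratio 0.22). The cohesin subunits Rad21 (305 and 115 CPM, 1.41) and Stag2 (1.13) were past 2-fold toward the SVZ, as was Rest, a repressor of neuronal genes (28.3 and 12.1 CPM, 1.23). Nipbl, which loads cohesin, was at 0.78 and Smc3 at 0.79. The DNA methyltransferases Dnmt3b, Dnmt3a and Dnmt1 had log2 ratios of 0.59, 0.73 and 0.01, and Smchd1, a silencer of the clusters, had 0.02. Mau2 at -0.56, Tet3 at -0.45 and Trim28 at -0.23 were higher in the cortex beyond counting error, within 2-fold.

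Cytoplasmic partners and processing enzymes of clustered protocadherins pointed both ways. Of 25 genes with at least 1 CPM, 5 were at least 2-fold higher in the cortex, 2 in the SVZ and 18 in between, with a median of -0.28. The cortex count is near the share of all genes, 15.6%, and nothing particular to the list is read from it. Those higher in the cortex were the kinase Ptk2b (0.486 and 3.22 CPM, log2 ratio -2.73), which alpha and gamma cytoplasmic domains bind and inhibit, the kinase Pak1 (-1.29), the actin regulators Wasf1 (-1.89) and Abi2 (-1.01), and the synaptic adhesion protein Nlgn1 (-2.51). The related kinase Ptk2 was within 2-fold at -0.71. Ctnnb1, the Wnt effector beta-catenin (1.61), and Wasf2 (1.02) were higher in the SVZ. Adam10, which cleaves the proteins, had -0.16.

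Genes of the surrounding chromosome region were counted in the same way. Of 13 genes around or between the clusters with at least 1 CPM, 2 were at least 2-fold higher in the cortex (Rell2 at -2.99 and Fchsd1 at -1.71) and 3 in the SVZ (Ndufa2 at 1.10, Dnd1 at 2.22 and Arap3 at 1.08), with a median of 0.44, counts close to the shares of all genes (15.6% and 20.0%). Taf7, a general transcription factor gene that lies between the beta and gamma clusters, had 89.8 and 66.3 CPM and a log2 ratio of 0.44 (0.35 to 0.52). Protocadherins encoded outside the clusters, single genes at other sites, pointed both ways as well. Of 12 with at least 1 CPM, 4 were at least 2-fold higher in the cortex (Pcdh7 at -2.19, Pcdh9 at -1.83, Pcdh19 at -1.38 and Pcdh20 at -1.06). Another 4 were at least 2-fold higher in the SVZ (Pcdh10 at 1.41, Pcdh11x at 1.03, Pcdh12 at 3.85 and Pcdh18 at 2.10), and the median was 0.20. Both counts in this short list lay above the shares of all genes, 15.6% and 20.0%.

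Markers of cell types also differed between the libraries. All 10 neuron markers were higher in the cortex, 7 of them at least 2-fold, with a median log2 ratio of -1.92 and a summed level of 4037 CPM in the SVZ and 11992 CPM in the cortex. All 10 progenitor markers were at least 2-fold higher in the SVZ, with a median of 5.19 and a summed level of 7704 and 161 CPM. On the same measure, the medians of cluster members with at least 1 CPM were -2.36 in alpha, -1.40 in beta and -0.76 in gamma. Neuron markers themselves ran from -0.32 (Rbfox3) to -3.51 (Syt1). Microglia markers were higher in the SVZ in 7 of 7 genes (61.9 and 6.49 CPM summed), as were 3 of 3 choroid plexus markers with at least 1 CPM (248 and 2.09 CPM summed, with Kl at 0 in both libraries). Interneuron markers had 2 genes at least 2-fold higher in the cortex and 1 in the SVZ of 8 (median 0.21; 154 and 514 CPM summed, of which Npy took 14.3 and 379 CPM), and vessel markers 1 and 0 of 7 (median 0.02; 140 and 107 CPM). Meninges markers with at least 1 CPM were at least 2-fold higher in the cortex in 2 of 4 (4.59 and 9.39 CPM summed). The 6 erythroid markers summed to 15.1 and 7.85 CPM, mostly Alas2 (14.8 and 7.48 CPM). Among them Hba-a1, Hba-a2, Hbb-bs and Hbb-bt were at 0 in both libraries. The reason for these zeros was not examined, and they do not show that blood cells were absent. The part of any of these cell types in the protocadherin differences was not tested.

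**Figure D5:**
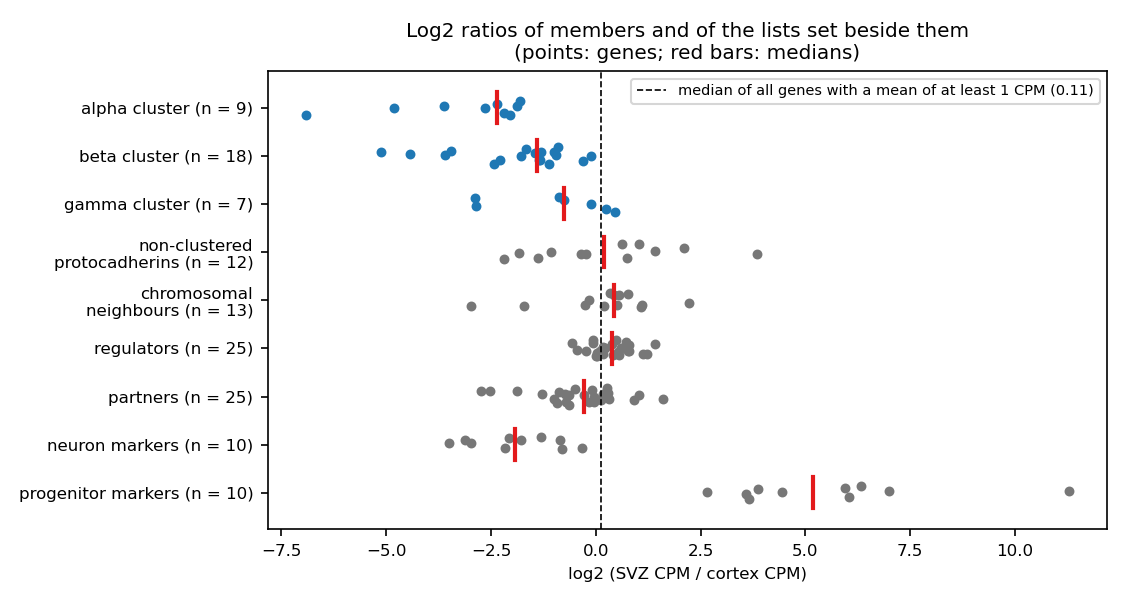
Log2 ratio of SVZ to cortex CPM (horizontal axis) for genes of each cluster (blue) and in the lists set beside them (grey) whose mean was 1 CPM or more, with red bars for medians and a dashed line for the median of all genes, 0.11. Medians fall from -0.76 in gamma through -1.40 in beta to -2.36 in alpha, next to -1.92 for neuron markers and 5.19 for progenitor markers.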

How the data were processed

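The study cut SVZ and cortex from haematoxylin-eosin stained sections, extracted RNA on columns and made cDNA libraries with a low-input kit. The authors trimmed adapters with cutadapt 4.1 and mapped read 1 to mm10 with STAR 2.7.9a, whose counts of whole reads per gene were deposited without normalization. The unstranded counts were used. Unmapped, multimapping, unassigned and ambiguous reads (41.0% and 40.9% of all reads in SVZ and cortex) stayed out of totals. The authors' table of CPM and fold changes was not used.

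CPM ratios were taken without a pseudocount, with 0 reads replaced by 3, and members at 3 reads or fewer in both libraries got no ratio. Intervals are exact Clopper-Pearson intervals. Those of the effective numbers use a multinomial approximation. Named with full values were the C-type members, the 3 most counted members of each stochastic class, the 3 members with the largest difference in each direction among those of at least 1 CPM, and members at 0 in a library. Members and lists were chosen with earlier results of these data known. Wapl and Diaph1 were not analysed here, nor were promoter sequences. Alternatives were scaling by TMM or upper quartile (edgeR 4.0.16) or size factors of DESeq2 1.42.0, leaving the 10 most counted genes out of totals, stranded columns, a thinned SVZ library, a pseudocount of 1 CPM, other minimums and folds, and left-out members, of which those for gamma A and B and for minus-strand exons were added after the data were seen. Python 3.11.15, scipy 1.17.1, pandas 2.3.3 and R 4.3.3 were used, and the procedures were tested on simulated data.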

Additional observations from a re-analysis of the deposited data

How the results depend on the processing

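The alpha, beta and C-type sums and the sum of all members stayed higher in the cortex under every alternative run, whereas the gamma sum stayed below 0 but not always beyond counting error. The size moved for some. The log2 ratio of all members was -1.65 under TMM, upper-quartile and DESeq2 scaling, which shifted all genes by at most -0.099, -1.50 with the SVZ library thinned to the cortex total and -1.49 without members under minus-strand exons. The beta sum was -1.53 under TMM and DESeq2 scaling and -1.53 under the upper quartile. The gamma sum was -0.28 as a median of members, -0.30 for gamma A and B alone, -0.17 without Pcdhgc3 (interval -0.35 to 0.01) and -0.053 without members under minus-strand exons (-0.28 to 0.18), and both of the last intervals held 0. The C-type sum was -1.42 without Pcdhgc3, the one C-type member under such exons. Gamma B turned from 0.93 to -0.33 without Pcdhgb6 and Pcdhgb8. Members at least 2-fold higher in the cortex numbered 23 to 27 of those with at least 1 CPM across scalings, stranded columns, thinning and the pseudocount, 3 of 4 with a minimum of 10 CPM and 15 at 4-fold. Members higher in the SVZ numbered 6 with no minimum. Of 377 recomputed member ratios, 340 stayed within the counting interval, 37 left it (29 of them with the pseudocount) and 0 turned a direction whose interval excluded 0. The effective numbers of isoforms stayed within their intervals with stranded columns, reads per kb of own exon and the thinned SVZ library. They were not recomputed with members left out, Pcdhgc3 among them. No paired analysis was possible because only 1 library was made per area, so no replicate could be left out. Depth limits the gamma class most, in which no gamma B gene reached a mean of 1 CPM.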
